A study of Hydra viridissima with 2 samples.

Results

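Single-cluster loci of green hydra (Hydra viridissima) are stretches of genome in which capped 5′ ends fell into 1 start cluster, with no other cluster of the same strand within 1000 bases. Members were chosen from the tags of both libraries added together. Tagged positions of 1 strand with at most 20 bases between them were joined, groups of at least 5 tags were kept as clusters, and clusters with at most 1000 bases between them were joined into loci. This gave 54909 clusters in 17517 loci, of which 6293 held a single cluster. The 354 with at least 20 tags are described here. They make up 3.84% of the 9229 loci with at least 20 tags, and the remaining 8875 loci held several clusters, 4 at the median.

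The tags come from CAGE, which captures the capped 5′ end of RNA. The aposymbiotic library was made from animals of clone 2 without the green algal symbiont, and the symbiotic (green) library from animals of clone 2 with it. Each was a pool of about 200 large whole animals kept at 24 °C and collected some days after a meal of brine shrimp, so each condition is 1 pool of 1 clone and no value below has a replicate check. How the symbiont was removed is not given in the sources used here.

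Hydra is a small freshwater cnidarian polyp, and green hydra keeps algae of the genus Chlorella inside the epithelial cells of its inner layer. RNA polymerase II begins a transcript at a start site and the new RNA receives a cap, so that a capped 5′ end marks where transcription began. Promoters with starts at 1 or a few bases are called focused, and those with starts spread over a wider stretch are called dispersed. In Hydra some messenger RNAs also receive a short capped leader by trans-splicing, and capped ends can be formed within transcripts. Position alone does not tell these apart, and gene models and sequence were not used here, so a start below means the position of a 5′ tag.

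The aposymbiotic library held 2138180 tags and the symbiotic library 3926689. Levels are given as CPM, tags scaled to the same total in both libraries, in which 1 aposymbiotic tag stands for 0.468 CPM and 1 symbiotic tag for 0.255 CPM. A count of 0 allows up to 3 tags, 1.40 and 0.764 CPM. The single-cluster loci received 69459 aposymbiotic and 131286 symbiotic tags, 3.25% and 3.34% of each library. Their tags were unevenly shared out. The median locus had 32 pooled tags, the middle range ran from 23 to 64, and the highest had 43680. The 6 most used loci held 71.3% of all tags of the group, and the 17 loci with at least 1000 tags held 87.8%.

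Most single-cluster loci were therefore weak, but a few were among the strong starts of the animal. Of loci with 20 to 29 pooled tags, 8.75% (161 of 1839; exact Clopper-Pearson 95% interval 7.50 to 10.1) held a single cluster. The share was 1.69% (31 of 1839; 1.15 to 2.38) at 100 to 299 tags and 4.08% (17 of 417; 2.39 to 6.45) at 1000 tags or more. The share thus fell and then rose again, through 2.06% (14 of 679; 1.13 to 3.44) at 300 to 999 tags. The rule itself counts tags and clusters, so these shares are given as a description. At the limits of the rule, 27 members had exactly 20 tags and 34 loci of 1 cluster had 19. The nearest other cluster lay 1001 to 1100 bases away for 29 members, and 9 loci of 2 clusters with at least 20 tags were joined over a gap of 901 to 1000 bases.

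**Figure D1:**
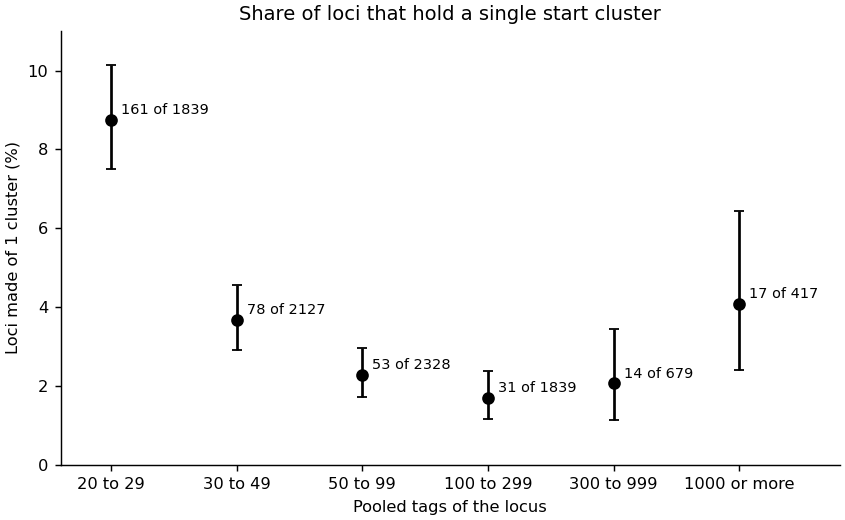
Percentage of loci made of exactly 1 cluster (vertical axis) by the pooled tags of the locus (horizontal axis), with exact 95% binomial intervals as bars and the number of loci beside each point. The share was 8.75% at 20 to 29 tags, lowest at 100 to 299 tags and 4.08% at 1000 tags or more.

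The word isolated describes these loci only as far as the limit of 1000 bases. The median distance to the nearest other locus on the same strand was 2176 bases for single-cluster loci and 4147 bases for loci of several clusters. A neighbour lay within 5000 bases for 263 of 354 single-cluster loci, 74.3% (69.4 to 78.8), against 54.2% (53.1 to 55.2) of the loci of several clusters. The rule itself used the gaps between clusters, so these shares are given as a description. Their intervals treat loci as independent and cover counting error only. The same difference was seen on both sides, with medians of 3788 bases upstream and 3982 bases downstream for single-cluster loci and 12812 and 11010 bases for the others. For 174 single-cluster loci, 49.2%, a locus with more tags than their own lay within 5000 bases. It lay only upstream in 89 cases, only downstream in 60 and on both sides in 25. This share was not counted for the loci of several clusters, which had 60 tags at the median against 32, so it is not a trait shown to be particular to the members. The next locus was more than 20000 bases away in 26 cases, and 3 loci had no other same-strand cluster on their scaffold.

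**Figure D2:**
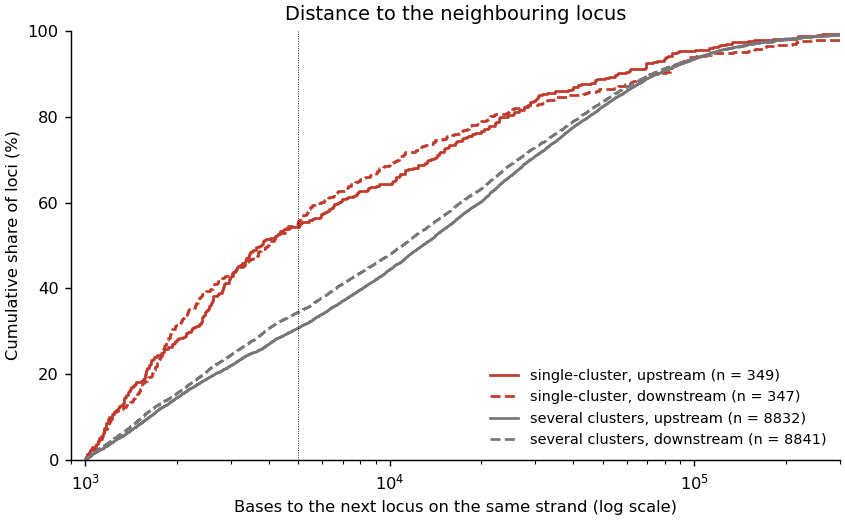
Cumulative percentage of loci (vertical axis) by the distance in bases to the next locus on the same strand (horizontal axis, log scale), for single-cluster loci in red and loci of several clusters in grey, upstream as solid and downstream as dashed lines. At 5000 bases (dotted line) the red curves lie above the grey ones on both sides.

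The strong members differed from the weak ones in where that neighbour lay. Of the 17 loci with at least 1000 tags, 12 had the next locus within 5000 bases downstream and 4 had one within 5000 bases upstream. In the 400 loci of several clusters with at least 1000 tags the shares were 34.5% downstream and 28.0% upstream. The 12 downstream neighbours held 16 to 16292 tags, and 11 of them held fewer tags than the member. Among the 292 single-cluster loci with fewer than 100 tags, 151 had a neighbour within that distance downstream and 160 had one upstream. For all 62 members with at least 100 tags, which include the 17, the imbalance was smaller, with 40 downstream and 30 upstream. The 17 strongest members thus mostly stood at the 5′ side of another group of tags. Those with fewer than 100 tags had neighbours about equally often on either side. With 17 loci this is a description, and it was not tested.

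Few tags fell around the members below the limit of 5 tags per cluster. The 1000 bases on each side held 4 same-strand tags together at the median and 26 at most, and 47 loci had none. At the median 90.8% of the tags within that window were inside the cluster, and for the 62 loci with at least 100 tags it was 99.5%. A tag upstream was seen for 69.8% of members and a tag downstream for 60.5%, against 83.2% and 78.0% of the loci of several clusters. The rule itself limits these tags.

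The most used locus lay on scaffold_8 from base 14498982 to 14499191 on the minus strand. It had 13565 tags in the aposymbiotic library and 30115 in the symbiotic one, or 6344 and 7669 CPM, 1.21-fold higher in the symbiotic library (95% exact binomial interval 1.18 to 1.23, counting error only). Its dominant start, at base 14499103 in both libraries, took 31.4% of the tags, and a second group began 43 bases downstream, where a single base took 8.74%. The tags covered 152 positions, yet the profiles of both libraries were nearly the same, with a Pearson r of 0.998 across positions.

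The second locus, on scaffold_3 from 8817084 to 8817424 on the plus strand, showed the opposite order of its peaks. Its 13421 aposymbiotic and 21604 symbiotic tags were worth 6277 and 5502 CPM, 0.877-fold in the symbiotic library (0.858 to 0.896). The dominant base at 8817331 took 32.3% of the tags, and 57.8% lay upstream of it, including a peak 74 bases upstream with 11.5%. On scaffold_1 from 14898716 to 14898862, minus strand, the libraries had 10260 and 20820 tags, 4798 and 5302 CPM. There, 2 bases separated by 1 other base held 26.4% and 23.4% of the tags, and a further single base 60 bases downstream held 15.9%.

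The fourth locus was dispersed. On scaffold_5 from 4347728 to 4348077, minus strand, 4874 and 9805 tags (2280 and 2497 CPM) were spread over 248 positions, and the base with the most tags, 4347792, held 9.29%. Its width, the distance that holds the tags from the 10th to the 90th percentile, was 314 bases. Other peaks stood 42 and 137 bases upstream of the dominant base, with 5.95% and 5.74% of the tags. In the library comparison it was 1.095-fold higher in the symbiotic animals (1.06 to 1.13).

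**Figure D3:**
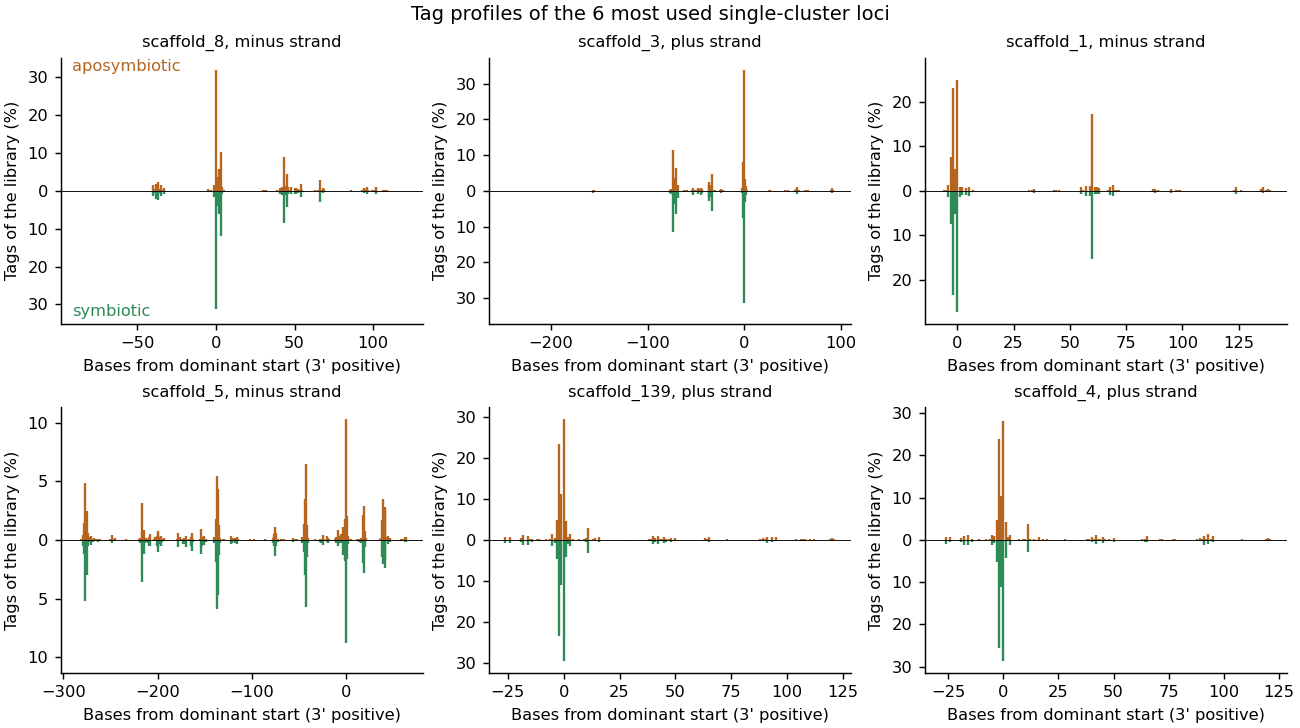
Percentage of each library's tags in the locus (vertical axis; aposymbiotic upward in brown, symbiotic downward in green) at each base from the dominant start (horizontal axis, bases, 3′ direction positive) for the 6 most used single-cluster loci. The dominant base is shared by both libraries in all 6, with 9.29% of the pooled tags on scaffold_5 and 26.4% to 32.3% in the other 5.

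The fifth and sixth loci were alike in level and in shape. On scaffold_139 from 24059 to 24206, plus strand, 3662 aposymbiotic and 5659 symbiotic tags were counted, 1713 and 1441 CPM. On scaffold_4 from 5459034 to 5459183, plus strand, 3786 and 5464 tags were counted, 1771 and 1392 CPM. Both were therefore lower in the symbiotic library, 0.841-fold (0.807 to 0.877) on scaffold_139 and 0.786-fold (0.754 to 0.819) on scaffold_4.

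Lined up on their dominant bases, these profiles almost coincided. Each had tags at 119 positions, 108 of them at the same distance from the dominant base, and these held 99.7% of the tags of each locus. The dominant base took 29.4% and 28.4%, the base 2 positions upstream 23.3% and 24.8%, and the base between them 11.02% and 10.91%. Over the 121 bases around the dominant base the pooled tags correlated across positions with r = 0.977 on the log2(tags + 1) scale. The other 41 members with at least 200 tags had best matches of at most 0.882 among all 1515 clusters of that size, and the median best match over the 43 was 0.701. With plain tags the pair stood out less. There r was 0.999 for the pair, and 0.991 for the member on scaffold_10 from 4119785 to 4119923, minus strand, with its best match. This comparison was chosen after the values were seen. Loci this alike may share reads if their sequences are near-identical copies, which was not tested, so the level and ratio of each of them are uncertain as separate loci.

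**Figure D4:**
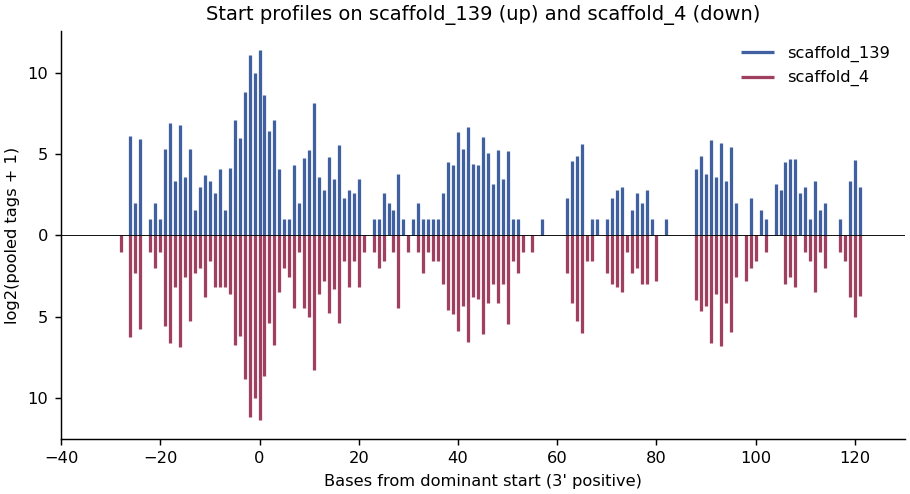
Pooled tags on the log2(tags + 1) scale (vertical axis; scaffold_139 upward, scaffold_4 downward) at each base from the dominant start (horizontal axis, bases, 3′ direction positive). The same peaks appear at the same distances on both scaffolds, with 108 of 119 positions shared.

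The remaining 11 loci with at least 1000 tags ranged widely in shape. Over all 17, widths ran from 30 to 474 bases with a median of 118, and 9 were wider than 100 bases. The dominant base held from 4.97% to 76.5% of the tags, and it was the same base in both libraries in 15 of 17. The narrowest of them, on scaffold_12 from 12655308 to 12655366, minus strand, was chosen for mention after its values were seen. It had 1059 aposymbiotic and 1075 symbiotic tags, 495 and 274 CPM, 1.81-fold lower in the symbiotic library (1.66 to 1.97). That was the lowest ratio of the 17, whose log2 ratios ran from -0.85 to 0.72, with 8 above and 9 below 0.

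In median width the single-cluster loci were close to clusters that have neighbours. Their median was 39 bases, with a middle range of 20 to 64 and a largest width of 474, against 38 bases (18 to 64, largest 1480) for the 12782 clusters with at least 20 tags in loci of several clusters. Sharp clusters, those of at most 10 bases, made up 14.4% (51 of 354; 10.9 to 18.5) and 16.9% (16.3 to 17.6). Width grew with tags, from a median of 34 bases in members with fewer than 100 tags to 77 bases in those with at least 100. The same was true of the other clusters, with 33 and 79 bases. The intervals of the sharp shares overlap, so no difference in sharpness was detectable with 354 loci.

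A single base took at least 50% of the tags in 54 members, 15.3% (11.7 to 19.4), against 12.2% (11.7 to 12.8) of the other clusters. For clusters with at least 100 tags the shares were 11.3% (7 of 62; 4.66 to 21.9) and 4.77% (3.98 to 5.66). The intervals overlap in both cases, from 100 tags only between 4.66 and 5.66, and an overlap does not show that the shares are equal. The dominant base had no fixed place within the cluster. With each extent divided into 3 equal parts from 5′ to 3′, it lay in the first part in 127, the middle part in 107 and the last part in 119 of 353 members longer than 1 base.

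The narrowest members with at least 50 tags had nearly all tags within a few bases. On scaffold_9 from 5548669 to 5548683, plus strand, 32 and 35 tags (14.97 and 8.91 CPM) had a width of 2 bases, with 85.1% at base 5548672. On scaffold_5 from 15501958 to 15501982, minus strand, 174 and 136 tags (81.4 and 34.6 CPM) had a width of 4 bases, with 71.3% at base 15501973. On scaffold_2 from 10258233 to 10258265, minus strand, 36 and 50 tags (16.8 and 12.7 CPM) also had a width of 4 bases. All 3 kept the same dominant base in both libraries.

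The widest members spread over far more bases. On scaffold_7 from 17627200 to 17627832, minus strand, 1722 and 4898 tags lay at 369 positions with a width of 474 bases. Its level rose from 805 to 1247 CPM, 1.55-fold (1.47 to 1.64), and the base with most tags was 17627409 for aposymbiotic and 17627822 for symbiotic tags, with 5.05% and 5.002% of them. On scaffold_6 from 14819088 to 14819701, minus strand, 1244 and 2103 tags (582 and 536 CPM) had a width of 376 bases. On scaffold_5 from 7405217 to 7405603, minus strand, 340 and 639 tags (159 and 163 CPM) had a width of 315 bases. The last of these was at almost the same level in both libraries, 1.02-fold (0.896 to 1.17).

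The dominant base was often, but not always, shared by the libraries. Of 232 members with at least 10 tags in each library, 55.2% (48.5 to 61.7) had the same dominant base. In 74.1% the dominant bases lay within 5 bases of each other, and in 36, 15.5%, they lay more than 20 bases apart. For the 9088 other clusters at that limit the shares were close to these, 53.2% (52.2 to 54.2), 71.2% and 18.9%. With at least 50 tags in each library the same base was dominant in 43 of 56, 76.8% (63.6 to 87.0), against 72.7% (70.7 to 74.6) of the other clusters. In 8 of these 56, 14.3%, the dominant bases were more than 20 bases apart, against 16.1% of the other clusters. In the 101 members with 20 or more tags from each of the libraries, median widths were 71 bases for aposymbiotic and 63 bases for symbiotic tags, and the median absolute difference within a locus was 5 bases.

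Shifts between profiles were ranked among the 101 members with at least 20 tags in each library. The Kolmogorov-Smirnov distance, the largest gap between the cumulative tag profiles, was largest there, 0.374, on scaffold_5 from 7402887 to 7403040, minus strand, where 26 and 25 tags were counted. It was 0.351 on scaffold_12 from 11074043 to 11074115, plus strand, where 24 and 28 tags were counted, and 0.322 on scaffold_4 from 12957032 to 12957115, minus strand, where there were 24 and 44 tags. On scaffold_12 and scaffold_4 the dominant base was nevertheless the same in both libraries, and on scaffold_5 it lay at 7402969 and 7402971. In the 17 loci with at least 1000 tags the distance ranged from 0.0133 to 0.219.

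The levels of the single-cluster loci in animals with and without algae were compared by size, since 1 library per group allows no test. Sizes and ranks used the ratio of CPM + 1, which makes the differences of weak loci look smaller. In whole animals, fewer cells of a type and less RNA per cell cannot be told apart. Of the 354 loci, 20 had at least 2 times the aposymbiotic level in the symbiotic library, 5.65% (3.48 to 8.59), where 4.16% of all 9229 loci were. At least 2-fold lower were 28, 7.91% (5.32 to 11.2), where 3.52% of all loci were. The share of lower loci was thus above that of all loci by its counting interval, and the share of higher loci was not. By the 4-fold size, 1 was higher (0.163% of all loci) and 2 were lower (0.152% of all loci).

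These calls rested on weak loci. Within the class of 20 to 29 tags, 6.83% of the 161 members were higher and 9.94% lower by 2-fold, against 8.52% and 5.72% of the 1678 loci of several clusters. At 30 to 49 tags the shares were 5.13% and 10.3% of 78 members, against 6.20% and 4.59%. At 50 to 99 tags they were 7.55% and 5.66% of 53 members, against 3.12% and 2.73%. The 28 lower loci had a median of 25.5 pooled tags and the 20 higher ones 26.5, and 24 and 15 of them had fewer than 50 tags. Among the 62 members with at least 100 tags, 1 was at least 2-fold higher (0.818% of all loci of that size) and 1 was lower (1.57% of all loci of that size). The median log2 ratio was -0.11 over all members, with 192 below 0 and 162 above, against 0.01 over all loci with at least 20 tags. It was 0.00 in the members with at least 100 tags (31 above and 31 below 0) and -0.11 in the 292 with fewer. The spread of the log2 ratios was 0.66 (SD over loci), against 0.55 in the loci of several clusters.

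**Figure D5:**
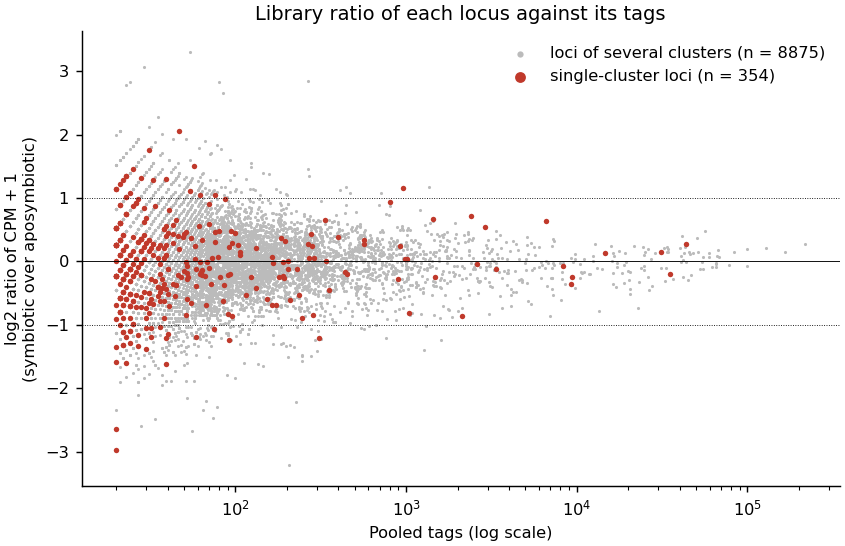
Ratio of CPM + 1 in the symbiotic over the aposymbiotic library on the log2 scale (vertical axis) against pooled tags (horizontal axis, log scale) for the 354 single-cluster loci in red and the 8875 loci of several clusters in grey, with dotted lines at 2-fold. Red points beyond the lines lie mostly at the left, where loci have fewer than 50 tags.

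Among members with at least 30 tags, those that most favoured the symbiotic library had few aposymbiotic tags. The highest, on scaffold_2 from 7076092 to 7076233, minus strand, had 4 and 43 tags, 5.85-fold higher in CPM (2.13 to 22.5), and its nearest same-strand cluster was 84603 bases away. On scaffold_2 from 10458744 to 10458821, minus strand, 3 and 28 tags gave a ratio of 5.08 with an interval of 1.57 to 26.1. On scaffold_59 from 45681 to 45796, minus strand, 8 and 49 tags gave 3.34-fold (1.57 to 8.15). The others were on scaffold_1 from 13495979 to 13496046, minus strand, with 6 and 33 tags (2.99-fold, 1.24 to 8.74), and on scaffold_7 from 15899128 to 15899220, minus strand, with 5 and 28 tags (3.05-fold, 1.16 to 10.1). All 5 were wider than 30 bases, from 31 to 101. They reached the minimum of 30 tags mostly through symbiotic tags, and their intervals do not allow for this choice.

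Those that most favoured the aposymbiotic library included the narrow locus on scaffold_5 with 174 and 136 tags described above, 2.35-fold lower in the symbiotic library (1.87 to 2.96) and the only one of at least 100 tags. The lowest among members with at least 30 tags was on scaffold_8 from 960736 to 960825, minus strand. There 26 and 13 tags gave 3.67-fold lower (1.82 to 7.78). On scaffold_2 from 22637896 to 22637901, minus strand, 19 and 11 tags (3.17-fold lower, 1.43 to 7.38) lay within 6 bases. On scaffold_9 from 16016931 to 16017034, plus strand, 53 and 39 tags gave 2.50-fold lower (1.62 to 3.88), and on scaffold_2 from 9771828 to 9771848, plus strand, 23 and 16 tags gave 2.64-fold lower (1.34 to 5.35). All 5 were chosen by their ratio and had more aposymbiotic than symbiotic tags, and their intervals do not allow for this choice.

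Both loci that were at least 4-fold lower had only 20 pooled tags, and they are named because their number was small. On scaffold_12 from 2092816 to 2092830, minus strand, 19 aposymbiotic tags and 1 symbiotic tag were counted, a ratio of 34.9 in favour of the aposymbiotic library with an interval of 5.55 to 1450. On scaffold_4 from 13855678 to 13855760, minus strand, there were 18 and 2 tags, a ratio of 16.5 (3.96 to 147). The loci stand exactly at the minimum of 20 tags, so loci with a tag less were not considered. Both reached this minimum almost only through aposymbiotic tags and were chosen by their ratio, and their intervals do not allow for this choice. The tags of the locus on scaffold_12 lay at only 2 positions.

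Another member stood next to the only one of at least 100 tags that was 2-fold or more higher. On scaffold_9 from 16219082 to 16219223, plus strand, 187 and 772 tags were counted, 87.5 and 197 CPM, 2.25-fold higher in the symbiotic library (1.91 to 2.65). Downstream, 1521 bases away, the locus from 16220745 to 16220877 had 366 and 1066 tags, 171 and 271 CPM, 1.59-fold higher (1.41 to 1.79). Both were thus higher in symbiotic animals. This pair was chosen after its values were seen. In all, 30 single-cluster loci had another single-cluster locus as a neighbour within 5000 bases.

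Ratios of members and of their neighbours were related weakly. Over the 148 members with an upstream locus of at least 20 tags within 5000 bases, the log2 ratios of member and neighbour correlated with r = 0.36 (Pearson) and rho = 0.32 (Spearman). Over the 126 members with such a locus downstream, r was 0.11 and rho was 0.11. Members and neighbours share libraries and scaling, and loci are not replicates, so these values are descriptions.

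Of the 51 sharp members, 8 were lower by at least 2-fold and 0 higher by as much in symbiotic animals, although 25 had a log2 ratio above 0 and 26 below. The exact interval of the share of higher ones reaches up to 6.98%, and that of lower ones, 15.7%, runs from 7.02 to 28.6. Those 8 had 23 to 310 tags. Of the 2164 sharp clusters in loci of several clusters, 5.31% were lower and 6.56% higher by that size, so for higher ones no difference was detectable with 51 members. The sharp members had a median of 24 tags at a median of 5 positions, so that a few positions decide each ratio. Lower calls were not particular to sharp members. Of the 91 members 11 to 30 bases wide, 12.1% were lower and 5.49% higher, against 5.53% and 6.22% of the other clusters. At 31 to 60 bases 7.14% of members were lower against 5.30%. At 61 to 100 bases it was 1.39% against 4.55%, and above 100 bases 0% against 2.10%.

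Ratios were also compared by distance to the neighbour. In the 163 members whose nearest same-strand locus was 1001 to 2000 bases away, the median log2 ratio was 0.01 and 11 were at least 2-fold higher and 11 lower, 6.75% each. In loci of several clusters at that distance 3.93% were higher and 2.85% lower. In the 100 members at 2001 to 5000 bases the median was -0.14, with 3 higher and 3 lower, where 4.15% and 3.94% of the loci of several clusters were. In the 62 members at 5001 to 20000 bases the median was -0.31, with 3 higher (4.84%) and 9 lower (14.5%), against 4.38% and 3.08%. The 26 members beyond 20000 bases had a median of 0.13, with 3 higher (11.5%) and 5 lower (19.2%), against 3.801% and 3.73%. The ratio therefore did not fall steadily with distance. In loci of several clusters the medians were between -0.02 and 0.02 in all 4 classes of distance. The 62 members at 5001 to 20000 bases had 28 pooled tags at the median and the 163 nearest ones had 38.

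None of the most remote members with at least 50 tags differed by 2-fold or more between the libraries. On scaffold_5 from 15035743 to 15035925, plus strand, with its nearest same-strand cluster 126609 bases away, 67 and 123 tags were worth 31.3 CPM in both libraries (ratio 0.9997, 0.736 to 1.37). On scaffold_28 from 195883 to 196016, plus strand, 116 and 281 tags (54.3 and 71.6 CPM) gave 1.32-fold higher (1.06 to 1.65), with the neighbour 69292 bases upstream. On scaffold_10 from 5992392 to 5992434, minus strand, 22 and 37 tags (10.3 and 9.42 CPM) gave 0.916-fold (0.526 to 1.63), with the neighbour 69285 bases downstream. The limit of 50 tags leaves out weaker remote members, and some of those differed more. The log2 ratio was 2.06 on scaffold_2 from 7076092, with the nearest same-strand cluster 84603 bases away. It was -1.20 on scaffold_14 from 6343966 (81653 bases) and -2.64 on scaffold_4 from 13855678 (80167 bases). On scaffold_5 from 5412914, which was more remote than these, it was -0.23. Besides the locus on scaffold_139, those with no other cluster on their strand of the scaffold were on scaffold_46 from 43463 to 43560, minus strand, with 29 and 63 tags, and on scaffold_137 from 8646 to 8718, minus strand, with 12 and 13 tags. Scaffolds other than 1 to 16 held 15 members, 1 on each, or 4.24% of the members against 1.803% of the loci of several clusters.

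Tags of the opposite strand were rare around the members. Any such tag within 1000 bases was seen for 36 of 354 members, 10.2% (7.22 to 13.8), against 15.9% (15.2 to 16.7) of the loci of several clusters, which extend over more bases. At least 5 opposite tags were seen for 9 members, 2.54% (1.17 to 4.77), against 3.45% (3.08 to 3.85) of the loci of several clusters. At that limit the intervals overlap. For 5 of the 9 members the opposite tags outnumbered their own, and these 5 are named for this after the values were seen.

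The first lay on scaffold_5 from 4512388 to 4512390, plus strand, with 15 aposymbiotic and 20 symbiotic tags, of which 85.7% were at a single base. Within 1000 bases downstream of it, 45740 aposymbiotic and 91868 symbiotic tags lay on the minus strand, among the most used starts of the animal. The second lay on scaffold_14 from 6343966 to 6343982, minus strand, with 19 and 13 tags and 78.1% at a single base, beside 13184 and 22443 opposite tags downstream. Both were thus narrow, weak and within 1000 bases of a far stronger start on the other strand. The third, from 6872379 to 6872386 on the minus strand of scaffold_8, was 8 bases wide and had 17 aposymbiotic and 10 symbiotic tags, beside 221 and 278 opposite ones downstream. For the others the opposite tags lay upstream. On scaffold_3 from 13418465 to 13418516, plus strand, 41 and 34 tags stood beside 125 and 249 opposite ones, and on scaffold_4 from 4060053 to 4060083, plus strand, 18 and 22 stood beside 83 and 102. All 5 had a log2 ratio below 0, from -1.34 to -0.40. Whether the opposite tags play a part in these clusters was not tested.

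The members were also looked for in each library alone and in the cluster lists that the authors deposited. With the tags of the aposymbiotic library alone, 269 of 354 members again formed a single cluster with no neighbour within 1000 bases, 60 broke into several clusters, and 25 had no cluster of at least 5 tags. With the symbiotic tags alone these numbers were 308, 44 and 2. The median member had 13 aposymbiotic and 20 symbiotic tags. Deposited clusters overlapped 329 members in the aposymbiotic list and 352 in the symbiotic list. In the symbiotic list 3 members were met only by a cluster listed on the opposite strand, and in the aposymbiotic list 0 were.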

How the data were processed

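The files the authors deposited hold raw tag counts, without normalization, for each stranded base, and lists of clusters with their summed tags. Per the submitters' processing notes, fastp 1.1.0 and STAR 2.7.11b were used. Their settings, the genome build and any handling of duplicates are not stated there. Per the labels' protocols, caps were removed, a biotinylated dinucleotide was ligated to the freed ends, and reverse transcription used random primers.

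Tags were pooled, clustered and joined by the rule in the text, scaled to CPM by each library's total, and compared on CPM + 1 with sizes of 2-fold and 4-fold. No p-value was computed, since each group has 1 library. Intervals are exact binomial at 95% and cover counting error only, as amplified reads are not independent molecules. Coordinates count from 1 on the scaffolds of the files.

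Members and lists were chosen with earlier results of these data known. Loci named are the 6 with most tags, the 5 with the largest ratio in each direction (at least 30 tags), and the 3 narrowest, 3 widest and 3 most remote (at least 50 tags). The 3 with the largest shift (at least 20 tags in each library) were also named, and others are marked in the text. Planned work on bases at the dominant start and on genes was not run. Clustering and ratio rules were tested on simulated data. Alternatives covered scaling (TMM from edgeR 4.0.16 in R 4.3.3), added constant, minimum tags, joining distances and depth. Computation used scipy 1.17.1, pandas 2.3.3, numpy 2.4.6 and matplotlib 3.10.9 under Python 3.11.15.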

Additional observations from a re-analysis of the deposited data

How the results depend on the processing

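Of 50 values under alternatives, 20 stayed within counting error or within 1.5 times and 30 moved. Those that moved include the number of members, which the rule sets, and also 2-fold counts, widths and shares under changed measures or limits. The number of single-cluster loci was 1450 and 115 with minimums of 10 and 50 tags, 152 and 1535 with positions joined over 10 and 50 bases, 199 and 1008 with clusters of at least 3 and 10 tags, and 642, 191 and 91 with loci joined over 500, 2000 and 5000 bases. At equal depth it was 283, of which 167 shared strand and dominant base with a member. The 2-fold counts (higher, lower) were 2 and 4 with 5 CPM added, 5 and 4 from 50 tags, and 32 and 22 with positions limited to the 99th percentile. The limits, 71 aposymbiotic and 80 symbiotic tags, touched 26 members but changed the library totals, and the median log2 ratio of all 9229 loci moved from 0.01 to 0.16 (members 0.04), with 7.30% of all loci higher and 2.61% lower against 9.04% and 6.21% of members. The lower share of the calls was 58.3% as reported and 40.7% with that limit, which says nothing of the members alone. The median log2 ratio stayed below 0 in the other 8 alternatives run for it and was -0.21 with loci joined over 5000 bases (all loci 0.01). The median width was 20.5 bases (25th to 75th percentile), 58 (whole extent), 64 (from 50 tags), 70 and 50.5 (aposymbiotic or symbiotic tags alone), and 12 and 133 (joining over 10 and 50 bases). The sharp share was 25.4% up to 20 bases, 32.8% for the 25th to 75th percentile and 5.22% from 50 tags. The same dominant base was seen in 69.3% and 76.8% from 20 and 50 tags, and in 74.1% within 5 bases. Opposite tags were seen for 6.21% within 500 bases and 2.54% from 5 tags. With 5 CPM added, 8 of the named loci fell under 2-fold, and none changed sign under the 4 scalings and constants run. No paired analysis was possible because there was only 1 library in each group, and none could be left out. The cause was not tested where none is stated.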
